A study of Solanum lycopersicum with 4 samples.

Results

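The genes of the tomato plastid genome were followed in the leaf transcriptome of the *ddm1* mutant and of WT plants. All rows of the deposited count table that lie on chrC, the plastid chromosome of the M82 assembly, were taken, which gave 142 of 35821 genes. By the letter in their identifiers they comprise 89 protein gene rows, 8 rRNA genes and 45 tRNA rows, of which 81 lie on the minus strand and 61 on the plus strand. Poly(A) RNA was sequenced from the fourth leaf of 1-month-old *Solanum lycopersicum* cv. M82 plants kept in growth chambers. The *ddm1* group is the *Slddm1a/Slddm1b* double mutant, mutated in both tomato copies of the nuclear chromatin remodeler DDM1, and the other group is WT M82. Each genotype has 2 libraries, which the study's methods give as independent biological replicates. How many plants or mutant lines stand behind a library is not given in the sources used here. The nuclear identifiers are not paired with names in the files, so neither the mutated genes nor nuclear leaf markers were checked. The plastid transcripts of photosynthesis, such as rbcL, were present in all 4 libraries.

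The plastid genome encodes a small set of proteins, mainly subunits of the photosynthetic complexes and of the plastid's own ribosomes and RNA polymerase, together with the rRNAs and tRNAs needed to translate them. Most other plastid proteins are encoded in the nucleus and imported. In leaves, many photosynthesis genes are transcribed by the plastid-encoded polymerase (PEP), whose core subunits are the rpo gene products. A second polymerase of phage type, encoded in the nucleus (NEP), reads other genes, among them rpoB and accD in tobacco. Neighbouring plastid genes are commonly transcribed together and then processed. Plastid mRNAs do not carry the long stable poly(A) tails of nuclear mRNAs, and added A residues are known to mark them for decay. Counts from a poly(A) library therefore give the plastid RNA that entered that library, not the plastid RNA of the leaf.

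The libraries held 5462981 to 6887057 counts, of which 5541 and 6191 counts fell on plastid genes in *ddm1* and 11534 and 9919 counts in WT. PCR duplicates had been taken out before counting, and only reads with a mapping quality of at least 30 were counted. Reads that map equally well to several places, such as both copies of the plastid inverted repeat or a plastid sequence inserted in the nucleus, usually fall below such a limit. Among the plastid genes, the 2 libraries of *ddm1* differed little beyond counting noise (chi-square divided by its degrees of freedom 1.17, over 70 genes with at least 10 counts in sum). Over all genes this value was 5.21, so that they are not 1 library deposited again. The WT libraries lay further apart among plastid genes, at 5.11 over 84 genes, and at 2.62 over the 73 protein genes among them.

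The plastid genes took a smaller share of the leaf library in *ddm1* than in WT. Their share was 0.0838% and 0.0899% of the counts in the *ddm1* libraries and 0.198% and 0.182% in the WT libraries, so that the genotypes did not overlap. The log2 ratio of the mean shares was -1.13 (two-sided exact permutation test over libraries, p = 0.333, n = 2 per genotype). With 2 libraries against 2 this is the smallest p-value such a test can give, for this and for the other 5 sums tested in this way, before and after adjustment over the 6. When atpB, clpP and rbcL, the 3 most counted plastid genes, were left out, it was -1.44. Less RNA per plastid, fewer plastids per cell and a different uptake of plastid RNA into the poly(A) library cannot be told apart in these bulk samples.

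The 72 genes of the mitochondrial genome, the organelle genome most like the plastid's, took 0.0595% and 0.0482% of the counts in *ddm1* and 0.0289% and 0.0272% in WT. The log2 ratio of plastid to mitochondrial counts was 0.49 and 0.90 in the *ddm1* libraries and 2.78 and 2.74 in the WT libraries. The difference between genotypes was -2.06 on the log2 scale (two-sided exact permutation test, p = 0.333), with no overlap. Of the 20 mitochondrial genes that could be tested, edgeR called 9 up in *ddm1*, beside 25.3% of all genes tested. DESeq2 called 5 up, beside 20.8% of all genes tested. Neither tool called any down, with 0 also at an unadjusted p-value under 0.05. Plastid counts were thus lower and mitochondrial counts higher in both *ddm1* libraries.

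**Figure D1:**
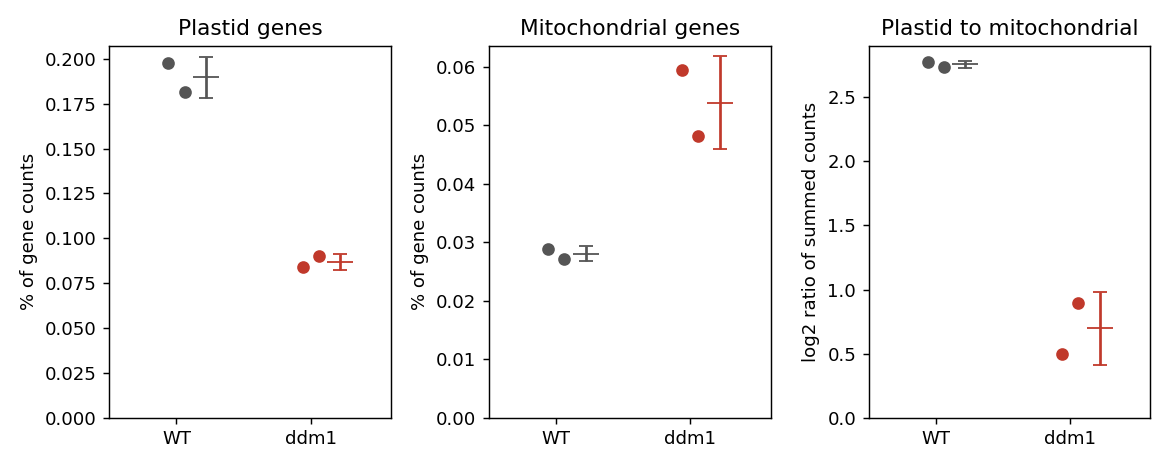
Share of all gene counts on plastid genes (left) and mitochondrial genes (middle), in percent, and log2 ratio of summed plastid to summed mitochondrial counts (right), for WT and *ddm1*. Points are the 2 libraries of each genotype, and the bar beside them is their mean with SD. The plastid share is near 0.19% in WT and 0.087% in *ddm1*, and the mitochondrial share lies higher in *ddm1*.

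Of the 142 plastid genes, 26 had 0 counts in all 4 libraries and 50, these included, had at most 3 counts in each. A total of 116 genes had a count, of which 111 had a lower mean CPM (counts scaled to library size, with TMM factors) in *ddm1* and 5 a higher one. The quasi-likelihood test of edgeR, with Benjamini-Hochberg adjustment over all 21289 genes tested, covered 70 plastid genes that passed its filter on low counts. Genes with an adjusted p-value under 0.05 were taken as called. In this test 59 of the 70 plastid genes were down-regulated in *ddm1*, beside 23.7% of all genes tested. No plastid gene was up-regulated by edgeR, beside the same 25.3% of all genes tested, and 0 were up at an unadjusted p-value under 0.05 by either edgeR or DESeq2. With DESeq2, 40 of the 70 were down-regulated, beside 18.4% of all genes tested. In all 70 tested genes both *ddm1* libraries lay below both WT libraries in CPM, which held for 38.3% of all genes tested.

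The log2 fold changes of *ddm1* over WT in these 70 genes ranged from -3.72 to -0.37 with a median of -1.68, beside a median of 0.016 over all genes tested. The filter bears on this count, because 23 of the 70 genes reached its minimum in both WT libraries but not in both *ddm1* libraries. This route, called below passing through the WT libraries alone, favours lower values in *ddm1*. It does not fix the direction of every such gene, since for some of them a single *ddm1* library reached the minimum. Of these 23 genes 20 were called. The other 47 genes passed in both genotypes, and 39 of them were called, with a median of -1.41. With any single library left out fewer of the 70 genes were called, and a smaller share of all genes as well. Without WT replicate 2 the median log2 fold change of the 70 genes was -1.64.

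**Figure D2:**
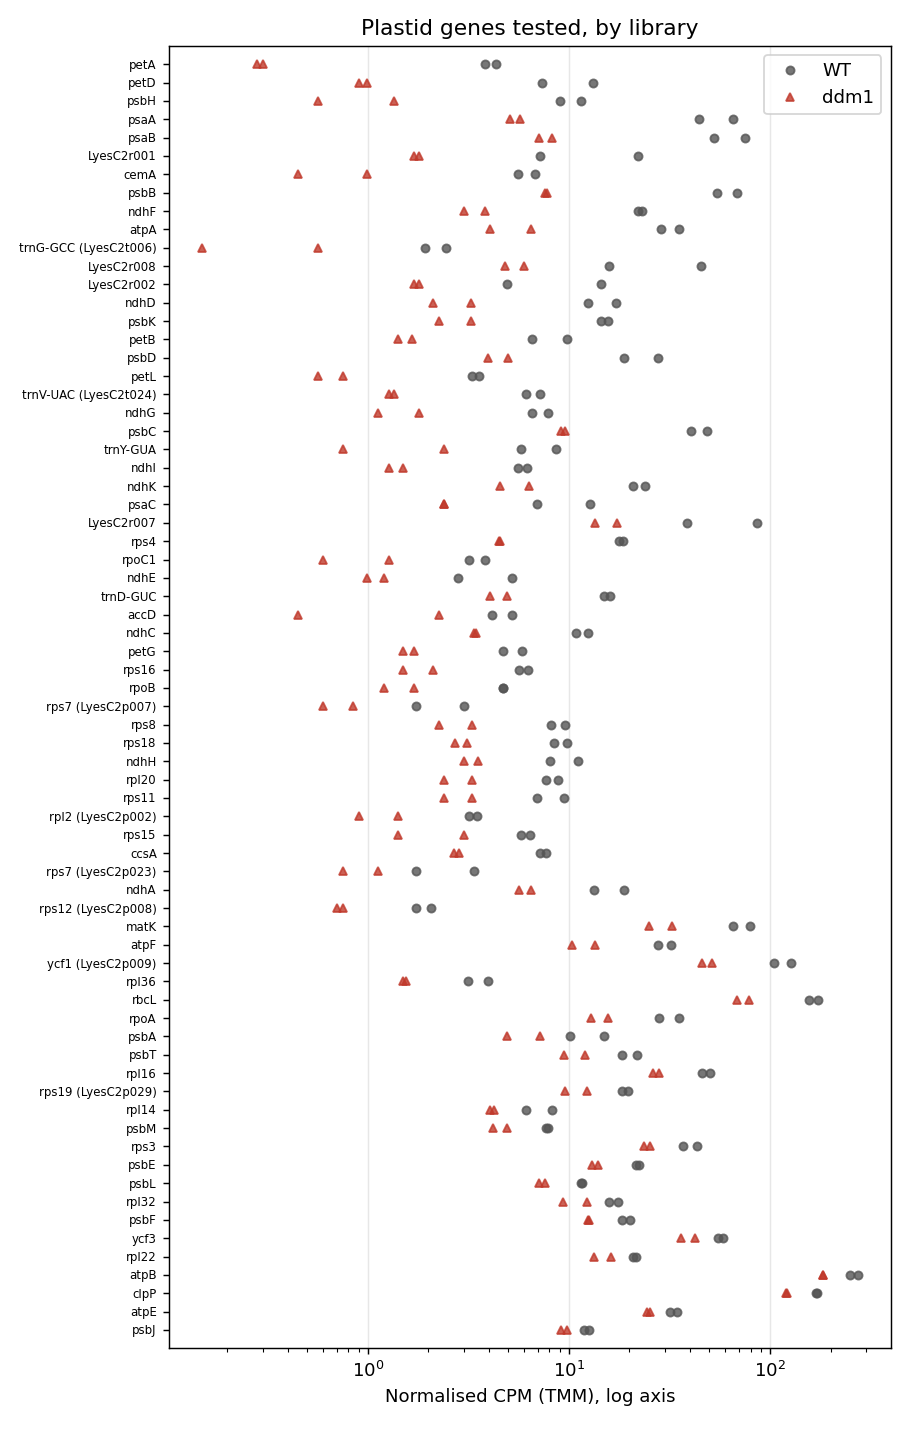
Normalised CPM on a log axis for the 70 plastid genes tested, 1 row per gene, ordered from the largest fall in *ddm1* (top, petA) to the smallest (bottom, psbJ). Circles are the 2 WT libraries and triangles the 2 *ddm1* libraries. In every row both triangles lie to the left of both circles, and the gap narrows from top to bottom.

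Of the photosystem I genes, psaA and psaB were among the 5 largest falls of the 70 tested plastid genes, and psaC fell less. All 3 tested of the 5 genes were down-regulated, and the summed counts of the list took 2.00% and 1.70% of the plastid counts in *ddm1* against 7.73% and 5.61% in WT. psaA (gene-LyesC2p069, chrC from 40319 to 42571, minus strand) encodes a core protein that binds the reaction centre chlorophylls. It had 38 and 36 counts in *ddm1* against 374 and 236 in WT. Its mean level was 5.40 ± 0.440 CPM (SD, n = 2) in *ddm1* and 54.8 ± 14.6 CPM (SD, n = 2) in WT (log2 fold change -3.34 ± 0.25 SE, edgeR adjusted p = 0.000274). Its partner psaB, on the same strand from 38089 to 40293, had 55 and 50 counts in *ddm1* against 432 and 280 in WT (log2 fold change -3.06 ± 0.23 SE, edgeR adjusted p = 0.000273). psaC, the subunit that carries the terminal iron-sulfur clusters, had the highest level per kb of the list. It had 16 and 17 counts in *ddm1* against 73 and 37 in WT, and fell by 2.03 on the log2 scale (adjusted p = 0.0079 by edgeR). For each of the 3 genes the WT libraries differed from each other by more than the *ddm1* libraries did, with WT replicate 1 the higher. psaI, a small subunit, was not tested and had 2 and 2 counts in *ddm1* against 12 and 3 in WT, and psaJ had 0 counts throughout.

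The photosystem II genes divided into large and small falls. Of 12 tested among 15 genes 8 were down-regulated, from -3.41 for psbH to -0.37 for psbJ, with a median log2 fold change of -0.97. psbH, a small phosphoprotein of the complex, had 9 and 4 counts in *ddm1* against 66 and 48 in WT (log2 fold change -3.41 ± 0.48 SE, edgeR adjusted p = 0.00176). It passed the filter through the WT libraries alone. psbB, which encodes the inner antenna protein CP47, was singled out after its values were seen. It had 52 and 54 counts in *ddm1* against 394 and 289 in WT (log2 fold change -2.99 ± 0.19 SE, edgeR adjusted p = 0.000182). The reaction centre protein D2 (psbD) and the antenna protein CP43 (psbC), whose genes share 53 bp so that reads there count for both, had log2 fold changes of -2.38 and -2.25. psbD and psbC were named after their values were seen.

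psbA (gene-LyesC2p089, chrC from 537 to 1598, minus strand) encodes the D1 reaction centre protein, which turns over rapidly in the light, and its mRNA is known as one of the most abundant in leaves. Here it had only 48 and 35 counts in *ddm1* against 86 and 54 in WT, and its mean level per kb (8.78 CPM per kb over the 4 libraries) was far below that of atpB (149 CPM per kb). Its log2 fold change was -1.05 ± 0.35 SE (edgeR adjusted p = 0.0439), and it did not pass with DESeq2 or without *ddm1* replicate 2, WT replicate 1 or WT replicate 2. psbT, a short subunit gene of 105 bp, had the highest level per kb of the list. It had 63 and 85 counts in *ddm1* against 125 and 97 in WT (log2 fold change -0.90 ± 0.25 SE, edgeR adjusted p = 0.0236). This call was lost with DESeq2 and without *ddm1* replicate 1, WT replicate 1 or WT replicate 2. Of the 4 neighbouring genes psbE, psbF, psbL and psbJ, which encode cytochrome b559 and small subunits, psbE alone was called (log2 fold change -0.70), and its call was lost with DESeq2 and without any 1 library. psbJ had 61 and 69 counts in *ddm1* against 72 and 63 in WT (log2 fold change -0.37 ± 0.25 SE, edgeR adjusted p = 0.273). Its raw counts overlapped between the genotypes, and its CPM did not. psbE, psbF and psbL were named after their values were seen.

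All 5 tested of the 6 cytochrome b6f genes, whose complex passes electrons between the photosystems, were down-regulated, with a median log2 fold change of -2.40. Each of the 5 passed the filter through the WT libraries alone. petA, the cytochrome f gene, had the largest fitted fall of all plastid genes tested (-3.72, standard error 0.51, adjusted p = 0.00161 by edgeR). It had 2 and 2 counts in *ddm1* against 22 and 23 in WT, a ratio of 13.98 between WT and *ddm1* with an exact 95% counting interval of 5.10 to 53.5. petD, the gene of subunit IV, had 6 and 7 counts in *ddm1* against 76 and 39 in WT (log2 fold change -3.42 ± 0.48 SE, edgeR adjusted p = 0.00176). petG, a small subunit gene, had the highest level per kb of the list, with 10 and 12 counts in *ddm1* against 27 and 31 in WT, and fell by 1.70 on the log2 scale (adjusted p = 0.0112 by edgeR). The petG call was lost with DESeq2 and without *ddm1* replicate 1 or WT replicate 2. petN, which was not tested, had 0 and 2 counts in *ddm1* against 8 and 6 in WT.

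The genes of the ATP synthase, which makes ATP from the thylakoid proton gradient, were unequal. atpB (gene-LyesC2p062, chrC from 54372 to 55868, minus strand), the beta subunit, was the plastid gene with most counts, 1218 and 1301 counts in *ddm1* against 1436 and 1449 in WT. Its level was 183.4 ± 0.594 CPM (SD, n = 2) in *ddm1* and 261 ± 16.1 CPM (SD, n = 2) in WT. This was among the smallest falls that passed the test (log2 fold change -0.51 ± 0.10 SE, edgeR adjusted p = 0.0074). atpE, the epsilon subunit gene that overlaps atpB by 4 bp, had 162 and 179 counts in *ddm1* against 183 and 183 in WT and was not called (log2 fold change -0.42, adjusted p = 0.0608 by edgeR). The alpha subunit gene atpA, named after its values were seen, lies in another part of the genome. It had 27 and 46 counts in *ddm1* against 164 and 187 in WT (log2 fold change -2.58 ± 0.29 SE, edgeR adjusted p = 0.000841). atpH had 0 counts in all libraries, and atpI, which was not tested, had 2 and 1 counts in *ddm1* against 1 and 3 in WT. The ATP synthase genes took 26.7% and 26.2% of the plastid counts in *ddm1* and 16.8% and 20.1% in WT. The log2 ratio of photosystem I to ATP synthase counts was -3.74 and -3.95 in *ddm1* and -1.12 and -1.84 in WT, a difference of -2.36 (two-sided exact permutation test, p = 0.333). Most of the ATP synthase counts were those of atpB, and the part of its high read density, given below, in this difference was not tested.

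rbcL (gene-LyesC2p061, chrC from 56683 to 58116, plus strand) encodes the large subunit of Rubisco, the carbon-fixing enzyme. It had 456 and 554 counts in *ddm1* against 989 and 834 in WT. Its level was 73.4 ± 6.91 CPM (SD, n = 2) in *ddm1* and 164.6 ± 10.7 CPM (SD, n = 2) in WT (log2 fold change -1.16 ± 0.11 SE, edgeR adjusted p = 0.000565). rbcL kept a nearly constant part of the plastid counts, with 8.23% and 8.95% in *ddm1* and 8.57% and 8.41% in WT. With the plastid total as library size its log2 fold change was 0.017 (standard error 0.11).

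The NDH complex, which returns electrons from ferredoxin to the plastoquinone pool, had 9 tested of 12 gene rows. All 9 were down-regulated, with a median log2 fold change of -2.04. Of the 9, the 3 genes ndhE, ndhG and ndhI passed the filter through the WT libraries alone, a route that favours lower values in *ddm1*. The values ranged from -2.72 for ndhF to -1.41 for ndhA, both named after their values were seen. ndhF had 20 and 27 counts in *ddm1* against 127 and 123 in WT, and ndhA had 43 and 40 against 108 and 71. ndhC, the member with the highest level per kb, had 23 and 24 counts in *ddm1* against 62 and 66 in WT (log2 fold change -1.76 ± 0.31 SE, edgeR adjusted p = 0.00411). It shares 121 bp with ndhK. The 2 copies of ndhB lie in the inverted repeat and were not tested, and the copy with more counts had 4 and 5 counts in *ddm1* against 8 and 13 in WT.

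**Figure D3:**
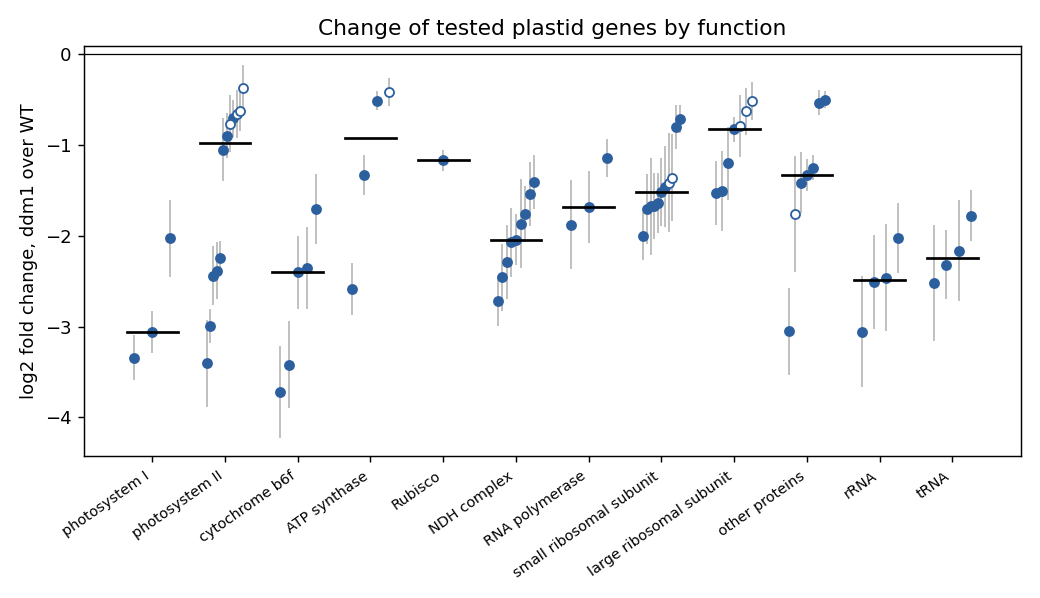
log2 fold change of *ddm1* over WT for each tested plastid gene, by the function of its product. Error bars are standard errors derived from the edgeR test. Filled points are genes with an adjusted p-value under 0.05, open points are genes without a call, and black lines are medians of the tested genes. All points lie below 0, with photosystem I at a median of -3.06 and the large ribosomal subunit at -0.82. Of the genes shown, 23 passed the filter through the WT libraries alone, a route that favours lower values in *ddm1*.

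Of the 4 genes of the plastid-encoded RNA polymerase, 3 were tested and all 3 were down-regulated. However, rpoB and rpoC1 passed the filter through the WT libraries alone, a route that favours lower values in *ddm1*. rpoA, the alpha subunit, had 86 and 111 counts in *ddm1* against 161 and 187 in WT (log2 fold change -1.14 ± 0.21 SE, edgeR adjusted p = 0.00512). rpoB and rpoC1, which form a transcription unit with rpoC2, were far weaker, at 0.958 and 0.794 CPM per kb over the 4 libraries against 22.6 for rpoA. rpoB had 8 and 12 counts in *ddm1* against 27 and 25 in WT, and rpoC1 had 4 and 9 against 22 and 17. Their log2 fold changes were -1.68 and -1.88 (adjusted p = 0.0135 and 0.0196 by edgeR). Both calls were lost with DESeq2 and without *ddm1* replicate 1, WT replicate 1 or WT replicate 2. rpoC2, 4179 bp long, had 0 and 0 counts in *ddm1* against 4 and 0 in WT. accD, a subunit of acetyl-CoA carboxylase and like rpoB a gene read by the NEP in tobacco, had 3 and 16 counts in *ddm1* against 30 and 22 in WT. Its libraries of *ddm1* lay far apart, and it was not called (log2 fold change -1.76 ± 0.64 SE, edgeR adjusted p = 0.0595).

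The ribosomal protein genes were less reduced in sum than the photosystem genes. In the small subunit 9 of 11 tested genes were down-regulated (median log2 fold change -1.52), and in the large subunit 4 of 7 (median -0.82). Of the tested genes, 5 of the small and 2 of the large subunit passed the filter through the WT libraries alone. That route favours lower values in *ddm1*. rps19 (gene-LyesC2p029), the small subunit gene with the highest level per kb, had 64 and 87 counts in *ddm1* against 113 and 98 in WT (log2 fold change -0.80 ± 0.24 SE, edgeR adjusted p = 0.0327). Its call was lost with DESeq2 and without *ddm1* replicate 1, WT replicate 1 or WT replicate 2. rpl32, the highest of the large subunit, had 62 and 87 counts in *ddm1* against 101 and 84 in WT and was not called (log2 fold change -0.63, adjusted p = 0.085 by edgeR). rpl22, with 89 and 114 counts against 119 and 114, was not called either (log2 fold change -0.52, adjusted p = 0.0872 by edgeR). These calls depended on the test. DESeq2 called 5 of the 18 ribosomal protein genes down, beside 18.4% of all genes tested, and edgeR called 13, beside 23.7%. With any 1 library left out edgeR called fewer of them, and a smaller share of all genes as well. The log2 ratio of photosystem to ribosomal protein counts was -0.13 and -0.25 in *ddm1* and 0.93 and 0.52 in WT, a difference of -0.91 (two-sided exact permutation test, p = 0.333). For the NDH genes against the ribosomal protein genes the difference was -1.04 (two-sided exact permutation test, p = 0.333). Neither ratio overlapped between genotypes.

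Among the other protein genes, clpP, the catalytic subunit of the Clp protease, had the highest level per kb. It had 807 and 851 counts in *ddm1* against 975 and 910 in WT, and its fall was small but passed the test (log2 fold change -0.50 ± 0.094 SE, edgeR adjusted p = 0.00541). Genes such as clpP and ycf3 carry introns, and their counts cover the whole span. The following were named after their values were seen. ycf3, needed to assemble photosystem I, had 240 and 301 counts in *ddm1* against 337 and 292 in WT (log2 fold change -0.53, adjusted p = 0.0173 by edgeR), next to psaA with -3.34. The ycf3 call was lost with DESeq2 and without *ddm1* replicate 1, WT replicate 1 or WT replicate 2. matK, the intron maturase, had 166 and 230 counts in *ddm1* against 375 and 421 in WT (log2 fold change -1.33, adjusted p = 0.00141 by edgeR). cemA, an envelope membrane protein gene beside petA, had 3 and 7 counts against 32 and 36 (log2 fold change -3.05, adjusted p = 0.00277 by edgeR). It passed the filter through the WT libraries alone.

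The rRNA genes lie in the inverted repeat, where each occurs in 2 copies, and are named here by identifier because the table of names gives no other. In sum they had 180 and 153 counts in *ddm1* against 976 and 355 in WT, so that WT replicate 1 stood apart. For the rRNA gene of 2810 bp, the copy LyesC2r007 (minus strand, from 132869 to 135678) had 116 and 95 counts in *ddm1* against 496 and 205 in WT. Its copy LyesC2r002 (plus strand, from 105660 to 108469) had 12 and 12 counts against 83 and 26. For the gene of 1500 bp, LyesC2r008 had 40 and 34 counts against 262 and 84, and LyesC2r001 had 12 and 12 against 127 and 38. The minus-strand copy thus held more counts than the plus-strand copy in every library, for genes of equal length. All 4 genes were down-regulated by edgeR, with log2 fold changes of -2.02 (LyesC2r007), -2.46 (LyesC2r002), -2.51 (LyesC2r008) and -3.06 (LyesC2r001). Without WT replicate 1 these were -1.32, -1.48, -1.55 and -2.02, and LyesC2r002 was no longer called. The short rRNA genes were not tested. LyesC2r005 had 0 and 0 counts in *ddm1* against 7 and 2 in WT, LyesC2r006 had 1 count in all, and LyesC2r003 and LyesC2r004 had 0 counts. Because reads of identical copies can be split or dropped, the level of each copy is uncertain.

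Of the 45 tRNA rows 19 had 0 counts and 4 were tested, all of which were down-regulated. Through the WT libraries alone passed trnG-GCC (LyesC2t006), trnY-GUA and trnV-UAC (LyesC2t024), a route that favours lower values in *ddm1*. The gene trnD-GUC passed in both genotypes. Rows of split tRNA genes, such as trnK-UUU, hold an exon each. trnD-GUC, the highest per kb, had 27 and 35 counts in *ddm1* against 86 and 85 in WT (log2 fold change -1.78 ± 0.28 SE, edgeR adjusted p = 0.00288). At 74 bp it is shorter than the reads of 75 bases, so reads that extend into its surroundings are included. Among the rows not tested, the exon LyesC2t003 of trnK-UUU had most counts, 0 and 3 counts in *ddm1* against 12 and 8 in WT.

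Along the plastid genome, falls differed between neighbouring genes, also where the genes are known to be transcribed together. The clusters given here were chosen after the values were seen. In the cluster of psbB, psbT, psbH, petB and petD, all on the plus strand, the log2 fold changes were -2.99, -0.90, -3.41, -2.40 and -3.42. The psbE-psbF-psbL-psbJ cluster on the minus strand ranged from -0.70 to -0.37, while petA on its one side and petL on its other, both on the plus strand, had -3.72 and -2.36. The cluster from ndhH to ndhD, which includes psaC, ranged from -2.46 to -1.41. The row of ribosomal protein genes from rps19 to rpoA ranged from -1.67 to -0.52. The 22 tested genes on the plus strand had a median of -2.37 and the 48 on the minus strand a median of -1.49. Of these, 11 on the plus strand and 12 on the minus strand passed the filter through the WT libraries alone. That route favours lower values in *ddm1*. Among the genes that passed in both genotypes the medians were -2.25 over 11 genes on the plus strand and -1.33 over 36 on the minus strand. The plus strand held 15.9% and 17.2% of the plastid counts in *ddm1* and 25.2% and 22.1% in WT. Genes of the photosystem, b6f and ribosomal lists are not spread evenly over the strands, and their part in this difference was not tested.

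**Figure D4:**
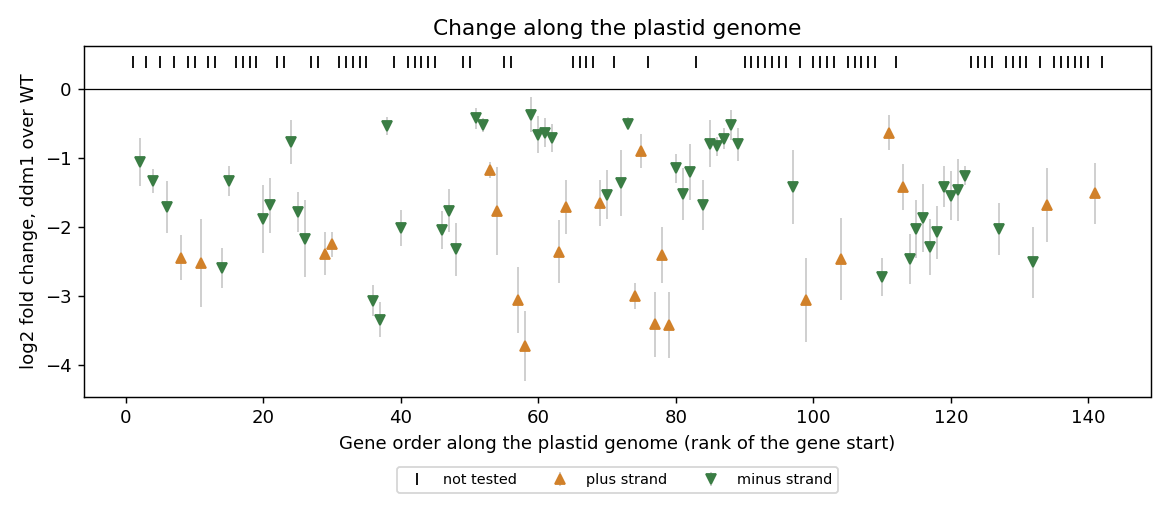
log2 fold change of *ddm1* over WT for the tested plastid genes, in their order along the plastid genome (rank 1 to 142). Triangles pointing up are genes on the plus strand and triangles pointing down genes on the minus strand. Error bars are standard errors derived from the edgeR test, and ticks at the top mark genes that were not tested. Neighbours such as psaA (-3.34) and ycf3 (-0.53) lie far apart, and ticks crowd in the inverted repeat on the right.

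Counts were near 0 over whole stretches. Runs of at least 3 neighbouring genes with at most 3 counts in every library occurred at 8 places. The longest held 6 genes, from rpl2 (LyesC2p028) to trnL-CAA (LyesC2t030), chrC from 86035 to 95681, and includes ycf2, a gene of 6837 bp with 1 count in all. Another, from trnW-CCA to rpl33 (68213 to 69729), lies between the tested genes petG and rps18. Of the 53 rows whose name occurs more than once on chrC, or which are rRNA genes, 20 had 0 counts, 12 were tested and 10 of these were called. Not all of the 53 rows are identical copies. Some are single exons of split tRNA genes, and the rows of ycf1 and of rps19 differ in length within each pair. Of the 89 other rows 6 had 0 counts, 58 were tested and 49 were called. The part of identical sequences in the empty rows was not tested.

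The removal of duplicates can limit how high a count rises, because single-end reads with the same start are merged. Counts were therefore set against the number of possible read starts, taken as the gene length plus the read length of 75 bases minus 1. Over all genes the highest value in a library lay between 0.921 and 1.17, so a value of 1 was not a strict limit. Among plastid genes atpB was highest, with 0.775 and 0.828 counts per start in *ddm1* and 0.914 and 0.922 in WT. The 14 tested plastid genes with at least 0.3 counts per start in WT had a median log2 fold change of -0.68, and 9 were called. In the 29 genes from 0.1 to 0.3 the median was -2.01, with 27 called, and in the 27 genes under 0.1 it was -1.70, with 23 called. Across the 70 genes, which share their libraries and are not independent replicates, Pearson's r between log2 fold change and WT counts per start was 0.46 and Spearman's rho 0.41. Most of the genes that passed the filter through the WT libraries alone lie under 0.1 counts per start. That route favours lower values in *ddm1*, so these medians, calls and correlations are partly set by the filter. Dense genes with larger falls occurred as well. psbK, a photosystem II subunit gene with 15 and 23 counts in *ddm1* against 83 and 83 in WT, had a log2 fold change of -2.44, and trnD-GUC had -1.78. psbK was named after its values were seen. The part of read density in the small falls of atpB, clpP, psbT and the psbE cluster was not tested.

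**Figure D5:**
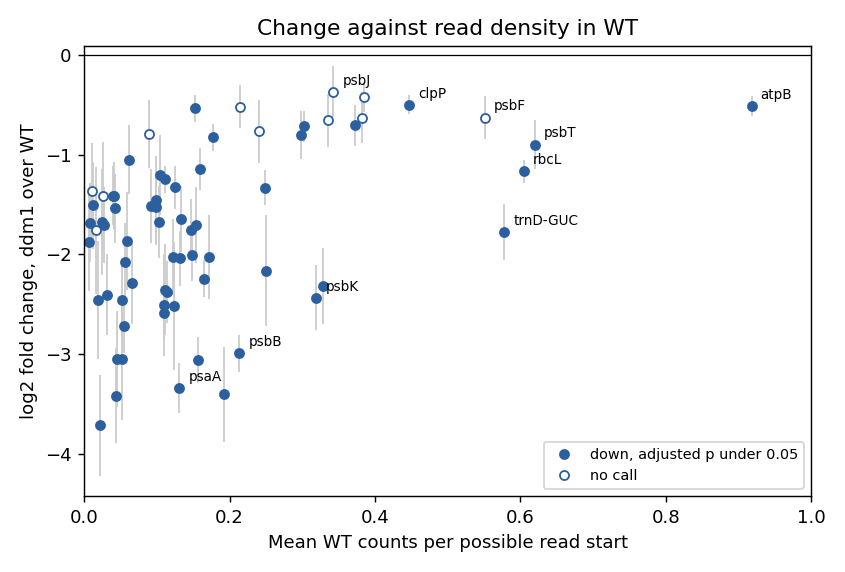
log2 fold change of *ddm1* over WT against the mean number of WT counts per possible read start, for the 70 plastid genes tested. Error bars are standard errors derived from the edgeR test, filled points are called genes and open points are not. Falls beyond -2.5 lie under 0.3 counts per start, and atpB, at 0.92, has -0.51.

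Relative to the plastid total, the tested genes lay on both sides of 0. With the summed plastid counts as library size, the median log2 fold change was -1.87 for the photosystem I genes, -1.23 for cytochrome b6f and -0.86 for NDH. It was 0.36 for the large ribosomal subunit, 0.26 for the ATP synthase and 0.21 for photosystem II. psaA had -2.15 (standard error 0.22) and psbB -1.81 (standard error 0.16) on this scale, while atpB had 0.67 (standard error 0.12) and clpP 0.68 (standard error 0.11). These values are relative, since atpB and clpP hold a large part of the plastid total. The filter also bears on the order of the lists. Through the WT libraries alone passed all 5 tested cytochrome b6f genes and 3 of the 9 NDH genes. In the large ribosomal subunit 2 tested genes did so, in photosystem II 1, and in photosystem I and the ATP synthase 0.

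The 72 plastid genes that were not tested hold few counts. In the fit of every gene with a count, 46 of them entered, of which 6 were called down by edgeR and 0 up. Of all genes in that fit 18.2% were called down and 20.7% up. The 6 plastid genes called down were rps14, ycf4, trnS-GCU, trnT-UGU, trnK-UUU (LyesC2t003) and trnG-GCC (LyesC2t007). The 5 genes with a higher mean CPM in *ddm1* were rps2, trnG-GCC (LyesC2t015), trnfM-CAU, ycf2 (LyesC2p026) and ycf1 (LyesC2p021), and 4 of these had at most 1 count in each library. rps2, a small subunit gene, had 10 and 13 counts in *ddm1* against 6 and 4 in WT. Its log2 fold change in that fit was 0.86 (standard error 0.61, adjusted p = 0.307 by edgeR), a difference not detectable at this depth. infA, psbN and rpl2 (LyesC2p028), the genes with most counts among the untested of their lists, had 8 and 4, 3 and 2, and 0 and 0 counts in *ddm1* and 9 and 5, 15 and 5, and 2 and 2 in WT.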

How the data were processed

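Poly(A) libraries of 2 *ddm1* and 2 WT leaf samples were compared. Single-end reads had been trimmed (Trimmomatic 0.38) and aligned to the M82 genome (HISAT2), and featureCounts 2.0.0 gave the deposited table, whose unit is the unnormalized read count. Per the file headers, it was run on alignments without PCR duplicates, in reverse-stranded mode and above a mapping quality limit of 30. Multi-mapping reads were admitted, and where genes overlap a read counts for all of them. A single interval, introns included, was counted for 140 of 142 plastid rows. Plastid coordinates are those of the deposited table.

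Symbols came from the RefSeq table of assembly SLM_r2.1, used for names, which matched all 142 plastid identifiers and 0 nuclear ones. After filterByExpr (minimum count 10) and TMM scaling, all genes were tested together in edgeR 4.0.16 (R 4.3.3; glmQLFit, glmQLFTest, genotype as the only term, Benjamini-Hochberg adjustment). Fold changes are log2 of *ddm1* over WT. edgeR prints no standard error here, so it was taken as the absolute log2 fold change divided by the square root of the quasi-likelihood F statistic. The script was tested on simulated data. DESeq2 1.42.0, other scaling factors, filters and thresholds, the replicate number as a block and libraries left out in turn were alternatives. Libraries left out in turn were fitted on the same genes, with the lone library assumed to vary like the other genotype's.

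The plastid genes, the functional lists and the tests were chosen with earlier results of these data known. The genes named were, per list, the highest level per kb and the untested gene with most counts, and besides these the 5 largest falls and 5 smallest changes at a mean log2 CPM of at least 1, any gene called up, the rRNA and rpo genes, rbcL and psbA. Other genes were not chosen by this rule, and those picked out for their values are marked as named after these were seen. Intervals cover counting error only. Batches of preparation or sequencing are not given in the sources used here, so a batch that follows the genotype cannot be told apart from it. Sequences of the plastid genes are not printed here.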

Additional observations from a re-analysis of the deposited data

How the results depend on the processing

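No plastid gene was called up, and no tested plastid gene changed sign, under any alternative. Against 59 plastid genes called down by edgeR, 38 were called at an adjusted p-value under 0.01, 40 with DESeq2, 44 of 52 under a minimum of 10 counts per library, a filter that drops genes low in *ddm1* by construction, and 63 with every gene with a count. With each library left out in turn, 39 to 51 were called. Of the ribosomal protein genes 13 were called, against 5 with DESeq2, 5 at an adjusted p-value under 0.01 and 4 to 8 with a library left out. The median log2 fold change of the tested plastid genes (-1.68) became -2.00 over every gene with a count and -1.45 under that minimum, and from -1.77 to -1.53 with a library left out. Fewer or more genes tested set the first 2 by construction. Without atpB, clpP and rbcL, the log2 ratio of the plastid share was -1.44 and that of plastid to mitochondrial counts -2.37. With a library left out they ranged from -1.19 to -1.06 and from -2.26 to -1.86. Replicate numbers did not pair libraries (correlation of deviations -0.0040), and with the replicate block 56 plastid genes were called, beside 22.7% of all genes. Across single tested genes and alternatives, 843 values kept their side of the threshold, 110 lost a call and 1 gained one. Scaling by RLE, by upper quartile or without organelle genes left 59 called, beside 23.1%, 22.8% and 23.7% of all genes. Depth left 72 plastid genes untested, among them 41 of 45 tRNA rows, and the tested cytochrome b6f genes had 2 to 12 counts per *ddm1* library.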
